A study of Mus musculus with 48 samples.

Results

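The female mice that drank β-aminopropionitrile and had no microscopically detectable aortic lesion (FeNonAD, 8 libraries) were compared with female mice on normal water (FeCon, 10 libraries), which are 18 of the 48 libraries of the series. The members were taken by their group labels and not by any measured value. All were C57BL/6J mice without a genetic change, 1 library per mouse, and the tissue was thoracic aorta (ascending aorta, arch and proximal descending aorta) after perfusion with saline. β-aminopropionitrile (BAPN) was supplied to mice 3 weeks old at the start, at 0.4% in their water, over 28 days, and FeCon mice drank normal water. The FeNonAD mice are survivors of the treatment, treated and control mice were kept in separate cages, and cage and treatment cannot be told apart. Of the male groups, MaNonAD (4 libraries) had the same BAPN treatment and no lesion, and MaCon (10) drank normal water. They served for comparison, as did the females with aortic aneurysm or dissection under the same BAPN treatment (FeAAD, 9). Mice of all these groups, FeCon included, were 3 weeks old at the start.

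BAPN inhibits lysyl oxidases, the enzymes that oxidise lysine side chains of elastin and collagen so that the chains can be crosslinked. The wall of the thoracic aorta is built of elastic lamellae with contractile smooth muscle cells between them, an endothelium on the inside and an adventitia of fibroblasts, collagen and macrophages on the outside. In young animals elastin and collagen are still being laid down, and a wall with fewer crosslinks carries the same blood pressure with weaker fibres.

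RNA-seq gave expected counts for 18782 genes, with library totals between 13548000.0 and 16322966 in the 18 female libraries, and 14431 genes passed the filter on low counts. Levels are given as CPM, counts relative to the TMM-scaled library size, and are not divided by gene length, so they are compared between libraries and not between genes. "Rose" and "fell" mean an adjusted p below 0.05 in edgeR's quasi-likelihood test, and a differentially expressed gene (DEG) also changed by at least 1 on the log2 scale. 397 genes (2.75% of those tested) met both limits. FeNonAD had the higher level in 241 of them (1.67%) and the lower level in 156 (1.08%). By adjusted p alone, 991 genes (6.87%) rose and 1105 (7.66%) fell. With library totals in place of TMM scaling, 1318 rose and 694 fell, so the balance of small changes between rises and falls depended on the scaling. Acta2 and Myh11 of smooth muscle, Pecam1 and Cdh5 of endothelium, Pdgfra and Dpt of fibroblasts and Cd68 and Csf1r of macrophages were detected in every one of the 18 libraries. In bulk tissue, fewer cells of a type and less RNA per cell cannot be told apart.

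FeNonAD8, FeNonAD5, FeCon2, FeCon7 and FeCon10 stood apart from the other libraries of their groups. FeNonAD8 was the highest FeNonAD library for 116 of the 241 genes higher in FeNonAD (48.1%, against 19.4% of all tested genes). FeNonAD5 was the highest for 57 of them (23.7%, against 11.5% of all tested genes), had the clock score farthest from 0 in the female libraries (-3.34), and without it there were 327 DEGs. FeCon2 was the lowest FeCon library for 97 of the 156 genes lower in FeNonAD (62.2%, against 13.0% of all tested genes). Across genes, the median correlation of FeCon2 was 0.980 with the other FeCon libraries and 0.987 with the FeNonAD libraries, and it was kept under its label. FeCon7 had the lowest median correlation within FeCon (0.972) and the highest summed level of immediate early genes, 5139.6 CPM against a FeCon median of 1944, and without it there were 391 DEGs. FeCon10 had the highest FeCon level of Myh7, the slow heart muscle myosin, with 9.90 CPM against a FeCon median of 0.544 CPM. Without FeNonAD8 the count was 302 DEGs (159 higher, 143 lower), and of the higher ones 152 were shared with the full comparison. Without FeCon2 the count was 488 (286 higher, 202 lower), and without FeCon10 it was 376. With FeNonAD8, FeCon2 and FeCon10 all left out, an alternative chosen after the data were seen, it was 365 (190 higher, 175 lower).

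Among lists of related genes with at least 15 tested members, the share that rose was highest for cell division (21 of 36 genes), matricellular proteins (6 of 24), cytokines and chemokines (10 of 44) and collagen chains (9 of 40), against 6.87% of all genes. The share that fell was highest for splicing factors (12 of 47), Wnt genes (5 of 29) and histone modifiers (8 of 47), against 7.66% of all genes, and for splicing factors and histone modifiers this depended on the scaling.

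**Figure D1:**
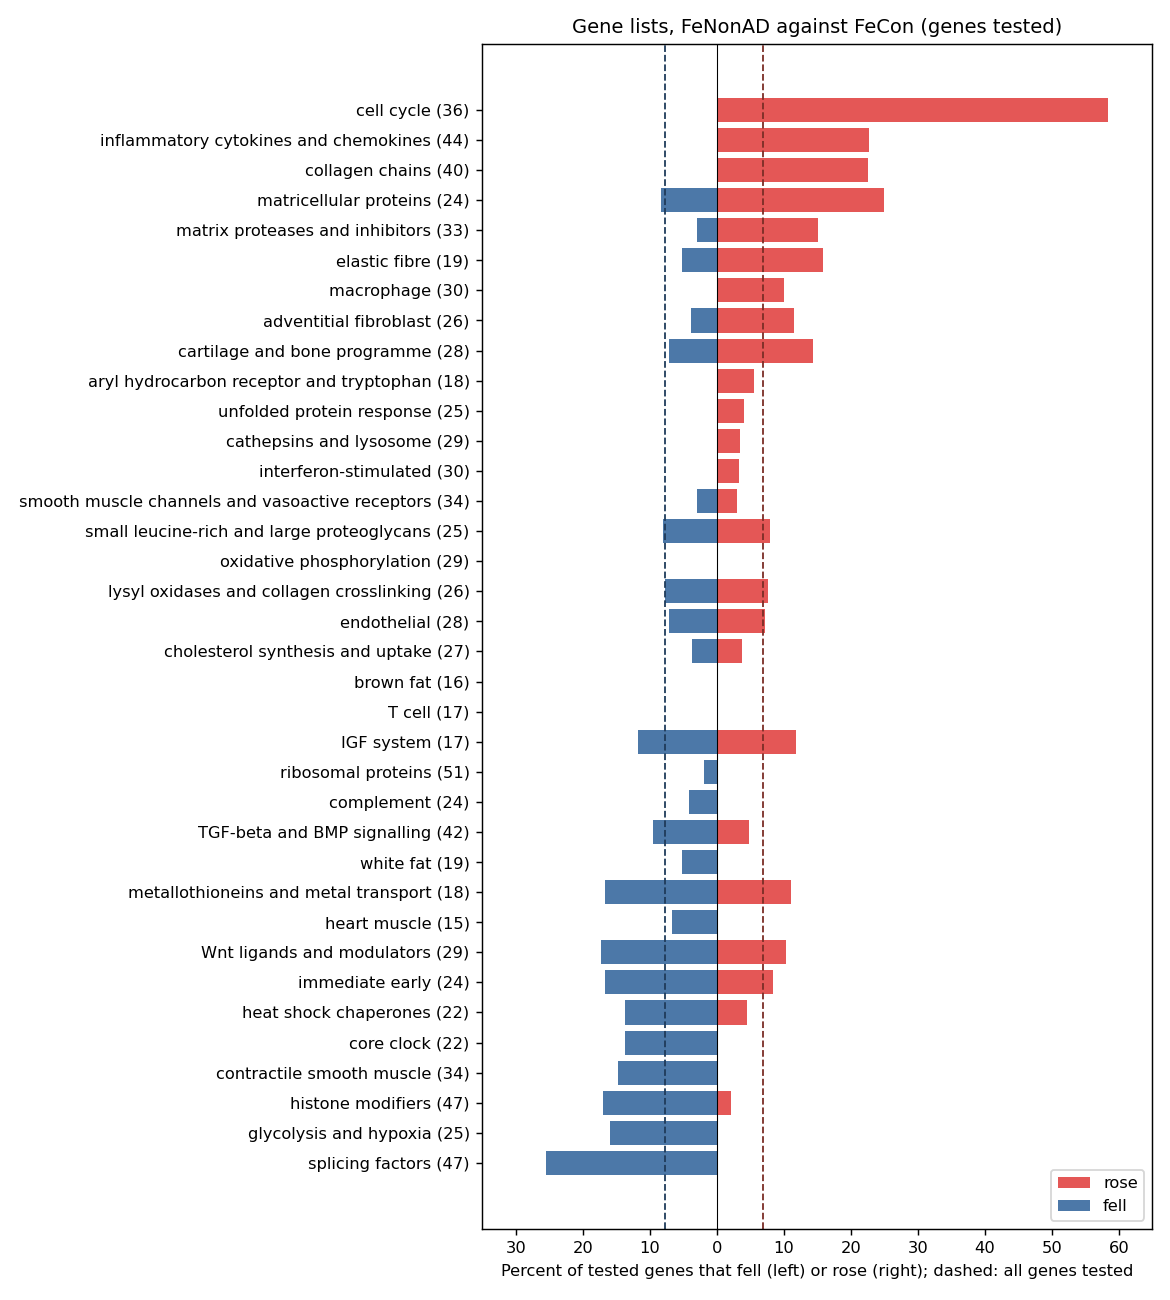
Percent of the tested genes of each list that fell (blue bars, left) or rose (red bars, right) in FeNonAD against FeCon, for lists with at least 15 tested genes, with the number tested in brackets and dashed lines at the share over all genes (7.66% fell, 6.87% rose). The longest bar is that of the cell cycle list, of which 21 of 36 genes rose, and the longest to the left is that of splicing factors.

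Elastin and several collagen chains rose. Eln, which encodes tropoelastin, the substrate of the inhibited enzymes, was 7934 to 16039.7 CPM (median 10480.5) in FeCon and 6766 to 38688 CPM (median 17066) in FeNonAD. The groups overlapped, since FeNonAD1 lay below every FeCon library, and the mean was 10936 ± 2466 CPM (SD, n = 10) against 20309 ± 10205 CPM (SD, n = 8). The change was a log2 fold change of 0.89 ± 0.23 (SE), edgeR adjusted p = 0.0073. Without FeNonAD8, FeCon2 and FeCon10 together the log2 fold change was 0.65 (adjusted p = 0.067), and with the heart muscle level in the fit 0.69 (adjusted p = 0.051). Of the elastic fibre list, 3 of 19 rose (Eln, Emilin1 and Fbn2) and 1 fell (Fbln1), that is 15.8% and 5.26% against 6.87% and 7.66% of all genes, with a list median of 0.13 against 0.00 over all genes. Without FeNonAD8, FeCon2 and FeCon10 together 0 of the list rose.

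Emilin1, an elastic fibre glycoprotein, was 192 to 394 CPM (median 269.9) in FeCon and 326 to 444 CPM (median 381) in FeNonAD, with a log2 fold change of 0.41 ± 0.12 (SE), edgeR adjusted p = 0.014. Fbn2, the fibrillin of developing microfibrils, had a log2 fold change of 2.83 that fell to 0.03 (adjusted p = 0.99) without FeNonAD8, and its call was lost in 12 of 28 alternatives. Fibrillin 1, Fbn1, the main microfibril protein of the adult, had 0.17 (adjusted p = 0.45). Fbln1, fibulin 1, fell by 0.46 on the log2 scale (edgeR adjusted p = 0.046), a call that was lost in 17 of 29 alternatives. Loxl1 and Lox, both enzymes that BAPN inhibits, did not pass the test: Loxl1 was 500.1 to 949.8 CPM (median 675) in FeCon and 503 to 798 CPM (median 615) in FeNonAD, with a log2 fold change of -0.15 ± 0.11 (SE), edgeR adjusted p = 0.41. Lox had a log2 fold change of 0.34 (adjusted p = 0.39), and 0.11 (adjusted p = 0.81) without FeNonAD8.

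Of 40 collagen chains 9 rose and 0 fell (0 fell at an unadjusted p under 0.05, and 0 by DESeq2), against 6.87% of all genes that rose. Col6a3, a chain of the microfibrillar collagen VI, had the lowest adjusted p and was 378 to 511 CPM (median 455) in FeCon and 679.7 to 963 CPM (median 747) in FeNonAD. Every FeNonAD library was above every FeCon library, as was so for 0.367% of all tested genes, and the change was a log2 fold change of 0.78 ± 0.14 (SE), edgeR adjusted p = 1.6e-04. Col27a1, a fibrillar chain found in cartilage, was also without overlap, at 19.8 to 44.5 CPM (median 34.9) in FeCon and 45.7 to 82.4 CPM (median 63.1) in FeNonAD, with a log2 fold change of 0.89 ± 0.16 (SE), edgeR adjusted p = 2.6e-04.

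Among the main fibril-forming chains of the aorta, Col1a1 was 1998 to 3853 CPM (median 2378) in FeCon and 2753 to 6805 CPM (median 3892) in FeNonAD and had a log2 fold change of 0.64 ± 0.17 (SE), edgeR adjusted p = 0.0077. Col3a1 was 3116 to 5668 CPM (median 3973) in FeCon and 4061 to 11459.9 CPM (median 6046) in FeNonAD, with a log2 fold change of 0.61 ± 0.16 (SE), edgeR adjusted p = 0.0074. Col1a2 and Col5a2 had log2 fold changes of 0.46 and 0.51, and Col15a1, a basement membrane zone collagen, 0.66. Without FeNonAD8 Col1a2 had 0.37 (adjusted p = 0.056). Col8a1 and Col11a1 rose most in size, but FeNonAD8 set much of that: without it Col8a1 had 1.05 (adjusted p = 0.16) and Col11a1 0.59 (adjusted p = 0.66). In Col11a1, a chain of cartilage collagen, FeNonAD8 had 26.9 CPM and the FeNonAD median was 0.609 CPM. Leaving out FeNonAD8, FeCon2 and FeCon10 left 4 rising chains, and over the alternatives the number ranged from 4 to 11.

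**Figure D2:**
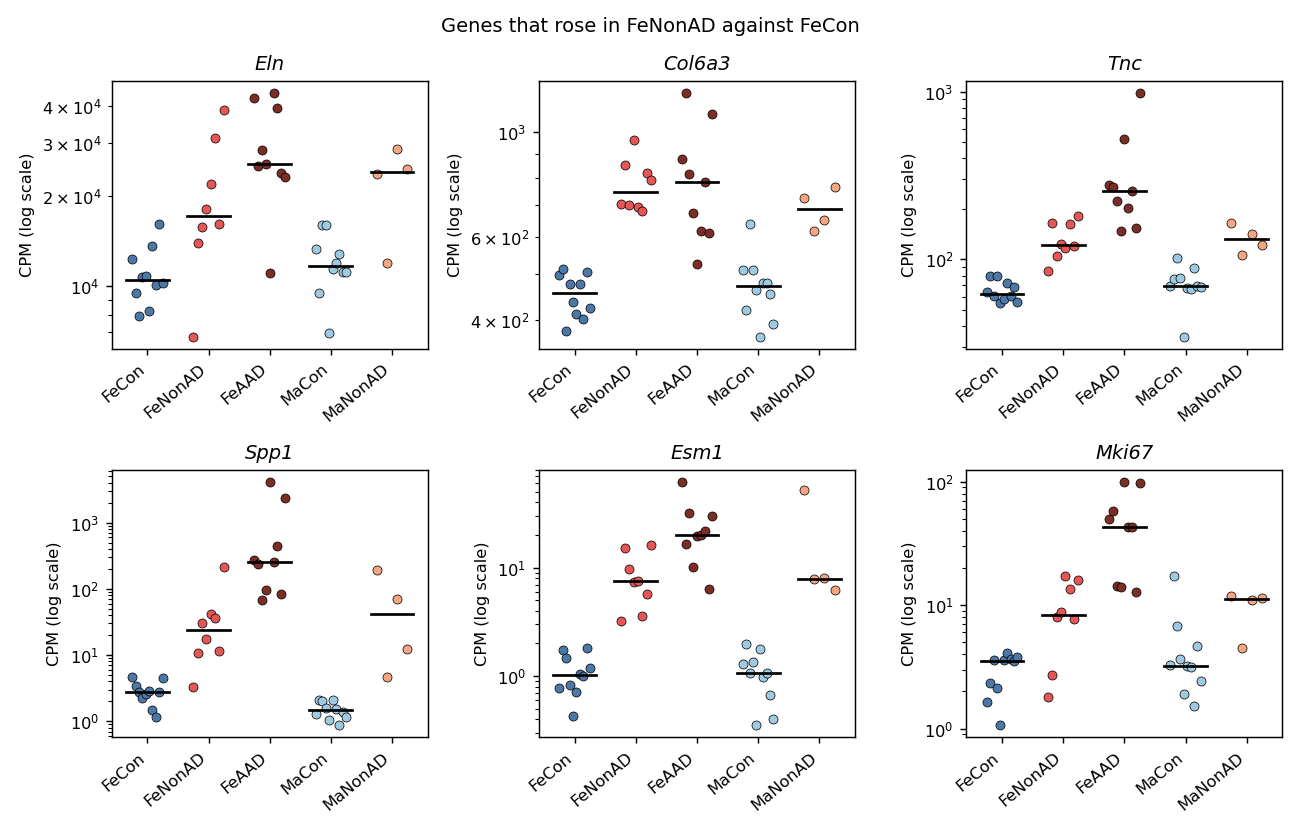
CPM on a log scale in FeCon, FeNonAD, FeAAD, MaCon and MaNonAD for 6 genes that rose in FeNonAD; each point is 1 library and each bar the group's median. In Col6a3, Tnc and Esm1 all FeNonAD points lie above the FeCon points, while Eln, Spp1 and Mki67 overlap at the low end of FeNonAD.

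Matricellular proteins, which sit in the matrix and signal to cells, included several rises. Fn1, fibronectin, was 1614 to 2689 CPM (median 1977) in FeCon and 2302 to 4458 CPM (median 3754) in FeNonAD, with a log2 fold change of 0.80 ± 0.16 (SE), edgeR adjusted p = 7.9e-04. Tnc, tenascin C, a glycoprotein of remodelled matrix, was 54.6 to 79.7 CPM (median 62.1) in FeCon and 85.1 to 182 CPM (median 121) in FeNonAD with no overlap, and had a log2 fold change of 1.02 ± 0.24 (SE), edgeR adjusted p = 0.0033. Acan, aggrecan, the large proteoglycan of cartilage that is also made in the media of the aorta, was 47.2 to 99.1 CPM (median 59.7) in FeCon and 91.4 to 170.2 CPM (median 146) in FeNonAD, with a log2 fold change of 1.02 ± 0.18 (SE), edgeR adjusted p = 1.5e-04. Of 24 matricellular genes, 6 rose (25.0%, against 6.87% of all genes) and 2 fell (8.33%, near the 7.66% of all genes), with a median of 0.13. The number that rose without FeNonAD8 was 3.

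Spp1, osteopontin, a secreted phosphoprotein of macrophages and of bone matrix, was the gene with the largest rise. It was 1.16 to 4.62 CPM (median 2.75) in FeCon and 3.29 to 210.3 CPM (median 23.9) in FeNonAD, so all but 1 FeNonAD library lay above the FeCon range. The means were 2.84 ± 1.12 CPM and 45.3 ± 68.1 CPM (SD), and FeNonAD8 alone had 210.3 CPM. The change was a log2 fold change of 3.99 ± 0.77 (SE), edgeR adjusted p = 4.1e-04, and 2.93 (adjusted p = 0.0053) without FeNonAD8. Thbs1, thrombospondin 1, and Ccn4 had log2 fold changes of 1.15 and 1.03, and without FeNonAD8 they had 0.68 (adjusted p = 0.19) and 0.69 (adjusted p = 0.089).

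Of 26 crosslinking genes 2 rose and 2 fell (7.69% each, near the 6.87% and 7.66% of all genes), and without FeNonAD8 0 rose. P4ha3, a collagen prolyl hydroxylase, rose (log2 fold change 2.35, and 1.12, adjusted p = 0.11, without FeNonAD8), as did Plod2, which hydroxylates collagen lysine (log2 fold change 0.50, and 0.44, adjusted p = 0.052, without FeNonAD8). Tgm2, a transglutaminase that crosslinks matrix proteins by another chemistry, fell: it was 911 to 2040.1 CPM (median 1549) in FeCon and 785 to 1202 CPM (median 859.6) in FeNonAD, with a log2 fold change of -0.79 ± 0.14 (SE), edgeR adjusted p = 1.9e-04. Of 33 proteases and inhibitors 5 rose (15.2%, against 6.87% of all genes) and 1 fell (3.03%, against 7.66%). Among the rises were the collagenase Mmp13 (1.59, and 1.42, adjusted p = 0.061, without FeNonAD8) and the metalloproteinase inhibitor Timp1 (1.63, and 0.71, adjusted p = 0.33, without FeNonAD8). Of the protease and inhibitor list 2 rose without FeNonAD8, 3 without FeNonAD2 and 3 without FeCon6, and the call of Mmp13 was also lost without FeNonAD5. Adamts9, a proteoglycan-cleaving protease, fell: it was 33.6 to 113 CPM (median 70.4) in FeCon and 24.7 to 37.0 CPM (median 31.4) in FeNonAD, with a log2 fold change of -1.17 ± 0.18 (SE), edgeR adjusted p = 3.2e-05.

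In the cartilage and bone list, Acan, Spp1, Col11a1 and Runx2 rose and Scin and Chad fell, that is 4 rises and 2 falls of 28 (14.3% and 7.14%, against 6.87% and 7.66% of all genes, so the falls were near that share). Runx2, the transcription factor of bone-forming cells, was 0.744 to 2.42 CPM (median 1.74) in FeCon and 1.83 to 5.54 CPM (median 3.02) in FeNonAD, with a log2 fold change of 1.02 ± 0.28 (SE), edgeR adjusted p = 0.011. Chad, chondroadherin, was 2.75 to 18.3 CPM (median 7.53) in FeCon and 1.83 to 9.17 CPM (median 3.08) in FeNonAD, with a log2 fold change of -1.27 ± 0.39 (SE), edgeR adjusted p = 0.021, and without FeCon10 it had -1.10 (adjusted p = 0.053). Igfbp2, which binds insulin-like growth factors, was 16.3 to 64.5 CPM (median 31.0) in FeCon and 67.5 to 186 CPM (median 98.8) in FeNonAD without overlap, with a log2 fold change of 1.68 ± 0.32 (SE), edgeR adjusted p = 3.9e-04. Among fibroblast genes, Cthrc1, secreted by activated fibroblasts, was 0.496 to 2.27 CPM (median 1.31) in FeCon and 2.17 to 49.9 CPM (median 3.31) in FeNonAD, with a log2 fold change of 2.83 ± 0.60 (SE), edgeR adjusted p = 0.0013 and 1.58 (adjusted p = 0.043) without FeNonAD8. Cd248, a fibroblast and pericyte surface protein, had a log2 fold change of 0.61 (edgeR adjusted p = 0.0065).

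More than any other list, genes of cell division rose. Of 36 tested cell cycle genes 21 rose (58.3%, against 6.87% of all genes) and 0 fell (0 at an unadjusted p under 0.05, 0 by DESeq2), 35 had a log2 fold change above 0, and the list's median was 1.09. The number that rose was 22 by DESeq2, 14 without FeNonAD8 and 13 without FeNonAD8, FeCon2 and FeCon10. Many promoters of genes that are used in late G2 and mitosis hold CCAAT boxes, bound by NF-Y, and a cell cycle homology region (CHR), through which repressor and activator complexes act. The promoters of Top2a and Cdk1 are shown because both genes rose and are classical members of this set. They are the 250 bases before the start in RefSeq GRCm38.p6, at chr11:99024190-99024439 (minus strand) and chr10:69352913-69353162 (minus strand), 5′ to 3′ in the direction of the gene, with CCAAT (either strand) and the CHR core TTTGAA (either strand) in capitals.
Top2a: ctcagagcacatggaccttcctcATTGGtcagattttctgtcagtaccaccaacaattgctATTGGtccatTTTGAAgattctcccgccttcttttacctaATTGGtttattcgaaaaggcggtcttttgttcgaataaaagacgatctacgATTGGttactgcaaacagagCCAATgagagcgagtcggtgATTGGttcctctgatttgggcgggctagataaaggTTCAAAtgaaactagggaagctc
Cdk1: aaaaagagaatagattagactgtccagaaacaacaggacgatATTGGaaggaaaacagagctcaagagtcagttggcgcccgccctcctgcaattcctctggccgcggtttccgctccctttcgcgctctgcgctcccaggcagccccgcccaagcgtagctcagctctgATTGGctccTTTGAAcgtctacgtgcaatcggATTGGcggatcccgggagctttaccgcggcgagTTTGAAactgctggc
Top2a holds 6 CCAAT boxes and 2 CHR cores, and Cdk1 3 and 2. A CCAAT box was present in 15 of 17 promoters (88.2%) of the 16 rising list members that matched the promoter table by symbol, in 11 of 14 (78.6%) of the tested members that did not rise, and in 33.8% of all 32851 promoters. A CHR core was present in 41.2%, 14.3% and 16%. A match in these letters is a description and not a bound site.

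Cenpe, a kinetochore motor, had the lowest adjusted p of the list and was 0.277 to 1.08 CPM in FeCon (mean 0.552) and 0.806 to 3.65 CPM (median 2.46) in FeNonAD, with a log2 fold change of 2.00 ± 0.44 (SE), edgeR adjusted p = 0.0016. Prc1, which bundles the spindle midzone, was 1.69 to 4.02 CPM (median 2.54) in FeCon and 2.67 to 14.5 CPM (median 6.82) in FeNonAD, with a log2 fold change of 1.60 ± 0.37 (SE), edgeR adjusted p = 0.003. Mki67, the antigen of dividing cells, was 1.06 to 4.09 CPM (median 3.55) in FeCon and 1.80 to 17.1 CPM (median 8.39) in FeNonAD, with a log2 fold change of 1.68 ± 0.43 (SE), edgeR adjusted p = 0.0069. FeNonAD was spread widely in these genes: for Mki67, 2 of the 8 libraries were within the FeCon range.

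Top2a, the topoisomerase that disentangles chromosomes, was 0.996 to 4.99 CPM (median 2.24) in FeCon and 2.05 to 14.3 CPM (median 6.78) in FeNonAD, with a log2 fold change of 1.62 ± 0.44 (SE), edgeR adjusted p = 0.01. Ccnb1, cyclin B1, was 0.265 to 1.16 CPM (median 0.782) in FeCon and 0.558 to 4.46 CPM (median 2.13) in FeNonAD, with a log2 fold change of 1.76 ± 0.50 (SE), edgeR adjusted p = 0.014. Cdk1, its kinase, was 0.729 to 2.53 CPM (median 1.17) in FeCon and 0.682 to 6.50 CPM (median 2.95) in FeNonAD; its log2 fold change of 1.35 ± 0.47 (SE), edgeR adjusted p = 0.043 was near the threshold and missed it in 16 of 29 alternatives. Foxm1, the transcription factor that drives many of these genes, had a log2 fold change of 1.03 (edgeR adjusted p = 0.018) and 0.88 (adjusted p = 0.057) without FeNonAD8. The named genes with the lowest adjusted p lay outside mitosis. Tonsl, which protects replication forks, was 0.952 to 3.18 CPM (median 1.85) in FeCon and 3.53 to 5.14 CPM (median 4.32) in FeNonAD without overlap, with a log2 fold change of 1.14 ± 0.18 (SE), edgeR adjusted p = 4.6e-05. Spry4, an inhibitor of receptor tyrosine kinase signalling, had the lowest adjusted p of all rising genes and was 8.34 to 15.8 CPM (median 10.2) in FeCon and 18.0 to 27.7 CPM (median 21.6) in FeNonAD without overlap, with a log2 fold change of 1.01 ± 0.13 (SE), edgeR adjusted p = 2.2e-06.

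Some cytokines and chemokines rose, and FeNonAD8 had the highest level of several. Of 44 tested 10 rose (22.7%, against 6.87% of all genes) and 0 fell (0 at an unadjusted p under 0.05, 0 by DESeq2). The median was 0.65, or 0.57 with genes at or below 3 counts in all libraries of a group set to that floor. Without FeNonAD8 4 rose. Cx3cl1, fractalkine, which recruits monocytes, was 10.3 to 20.8 CPM (median 13.8) in FeCon and 17.9 to 52.4 CPM (median 23.5) in FeNonAD, with a log2 fold change of 0.92 ± 0.20 (SE), edgeR adjusted p = 0.0018. Cxcl12, a chemokine of stem and immune cell homing, was 119 to 178 CPM (median 152) in FeCon and 202 to 396 CPM (median 218) in FeNonAD without overlap, with a log2 fold change of 0.69 ± 0.18 (SE), edgeR adjusted p = 0.0081. Ccl8, a monocyte chemokine, was 0 to 1.18 CPM (median 0.456) in FeCon and 0.133 to 6.56 CPM (median 2.21) in FeNonAD, with a log2 fold change of 2.42 ± 0.59 (SE), edgeR adjusted p = 0.0046.

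Il6, the acute phase cytokine, had 8.66 CPM in FeNonAD8 against a median of 0.0947 CPM over FeNonAD and 0.0717 over FeCon. Its log2 fold change was 3.69 (edgeR adjusted p = 0.0079) and 1.57 (adjusted p = 0.29) without that library. Cxcl13, the chemokine that draws B cells, had 13.8 CPM in FeNonAD6 and a FeNonAD median of 0.281, and its log2 fold change of 3.18 became 0.47 (adjusted p = 0.79) without FeNonAD6. Olr1, the receptor for oxidised low density lipoprotein, went from 3.07 to 0.52 (adjusted p = 0.7), and Il11, a fibroblast cytokine, from 1.64 to 0.38 (adjusted p = 0.67) without FeNonAD8. The calls of Il6 and Olr1 were also lost with the replicate block, and that of Cxcl13 with the block and with the clock score in the fit. Il11 lost its call in 10 of 28 alternatives, among them without FeCon1, FeCon4, FeCon5, FeCon7, FeCon8 or FeCon10. Il33 had 0.92, and 0.46 (adjusted p = 0.3) without FeNonAD8, with the call lost in 8 of 29 alternatives. Tnfrsf11b, osteoprotegerin, had 0.98, and 0.76 (adjusted p = 0.08).

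Among macrophage genes 3 of 30 rose (10.0%, against 6.87% of all genes), Spp1, Ms4a7 and Aif1, and 2 rose without FeNonAD8. Ms4a7, a marker of tissue macrophages, was 0.854 to 3.17 CPM (median 1.58) in FeCon and 2.49 to 14.1 CPM (median 4.85) in FeNonAD, with a log2 fold change of 1.67 ± 0.40 (SE), edgeR adjusted p = 0.0039. Aif1, which encodes the macrophage protein Iba1, had a log2 fold change of 1.09 (edgeR adjusted p = 0.037) that missed the threshold in 7 of 29 alternatives, FeNonAD8 among the libraries whose removal did so. Cd68, the general macrophage marker, had 0.51 (adjusted p = 0.3) with 7.33 to 20.5 CPM (median 10.7) in FeCon and 9.72 to 35.4 CPM (median 15.9) in FeNonAD. Without FeNonAD8 its log2 fold change was 0.27 (adjusted p = 0.63). The summed level of the 30 macrophage genes was 1975 to 3110.5 CPM in FeCon and 2374 to 3488 CPM in FeNonAD, with FeNonAD8 the highest. Of MHC class II genes 3 of 11 rose (27.3%, 2 without FeNonAD8 and 1 without FeNonAD5) and all 11 were above 0. Ciita, their activator, was 0.521 to 2.52 CPM (median 1.35) in FeCon and 1.18 to 9.75 CPM (median 3.35) in FeNonAD, with a log2 fold change of 1.53 ± 0.35 (SE), edgeR adjusted p = 0.0025. Of B cell genes 2 of 13 rose (15.4%, 0 to 4 genes over the alternatives), with Cd79b, a chain of the B cell receptor complex, at 0.0733 to 0.484 CPM (median 0.257) in FeCon and 0.262 to 1.67 CPM (median 0.885) in FeNonAD and a log2 fold change of 1.83 ± 0.45 (SE), edgeR adjusted p = 0.0052. All 7 tested red cell genes were above 0 (median 0.67), with a summed level over all 10 listed of 144 to 703 CPM in FeCon and 154 to 774 CPM in FeNonAD. All 7 tested thymocyte genes were also above 0 (median 0.47), with 8.61 to 40.9 CPM over the 8 listed in FeCon and 18.9 to 72.8 CPM in FeNonAD, highest in FeNonAD5, as was the B cell sum in FeNonAD. The part of blood and thymus in the B cell rise was not tested. No T cell or neutrophil gene rose or fell in edgeR, of 17 and 10 tested. At an unadjusted p under 0.05 there were 2 and 0, and by DESeq2 0 and 0.

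Of 28 endothelial genes 2 rose and 2 fell (7.14% each), near the shares over all genes of 6.87% and 7.66%. Esm1, endocan, a proteoglycan of sprouting endothelium, was 0.425 to 1.83 CPM (median 1.03) in FeCon and 3.22 to 16.3 CPM (median 7.52) in FeNonAD without overlap, with a log2 fold change of 2.96 ± 0.44 (SE), edgeR adjusted p = 1.6e-05. Apln, apelin, a ligand of tip cells, was 0.277 to 1.52 CPM (median 0.702) in FeCon and 1.42 to 4.14 CPM (median 2.45) in FeNonAD, with a log2 fold change of 1.60 ± 0.44 (SE), edgeR adjusted p = 0.011. Nos3, endothelial nitric oxide synthase, fell and was 38.4 to 108 CPM (median 72.4) in FeCon and 32.5 to 69.5 CPM (median 43.9) in FeNonAD (log2 fold change -0.60, edgeR adjusted p = 0.02), a call lost in 4 of 29 alternatives, among them without FeNonAD6 or FeCon9, and Pecam1, the general endothelial marker, had -0.60 (adjusted p = 0.029), a call lost in 6 of 29. The number that fell was 0 to 4 over the alternatives. The other 24 of 28 tested endothelial genes did not pass the test, and the median was 0.00.

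**Figure D3:**
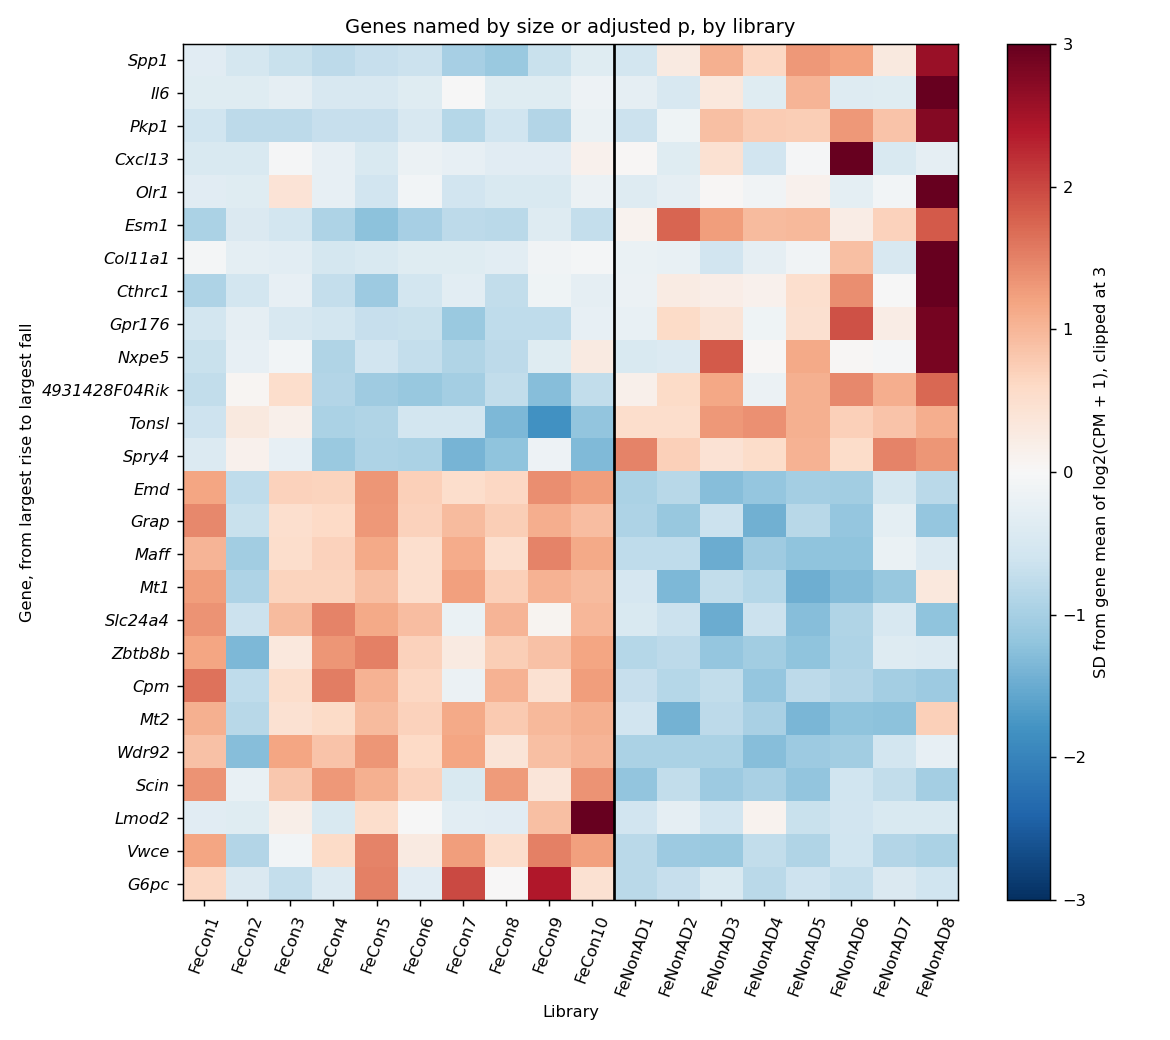
Level of the 26 genes named by the size of change or by adjusted p, in each of the 18 female libraries (FeCon left, FeNonAD right), as SD from the gene's mean of log2(CPM + 1) and clipped at 3. In Vwce, Mt1, Maff, Grap and Emd FeCon2 has the colour of FeNonAD, and in Il6, Olr1, Col11a1 and Cthrc1 FeNonAD8 stands out from the others.

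The remaining genes of the 10 largest rises were Pkp1, Gpr176 and Nxpe5. Pkp1, plakophilin 1, a desmosome protein, was 0.0733 to 0.656 CPM (median 0.210) in FeCon and 0.248 to 10.3 CPM (median 2.20) in FeNonAD, with a log2 fold change of 3.53 ± 0.56 (SE), edgeR adjusted p = 4.1e-05 and 2.90 (adjusted p = 3.3e-04) without FeNonAD8. Gpr176, an orphan receptor, was 0.0744 to 0.918 CPM (median 0.505) in FeCon and 0.930 to 13.6 CPM (median 1.97) in FeNonAD without overlap, with a log2 fold change of 2.82 ± 0.52 (SE), edgeR adjusted p = 2.6e-04 and 2.15 (adjusted p = 0.0032) without FeNonAD8. Nxpe5 had a log2 fold change of 2.45, and 1.80 (adjusted p = 0.052) without FeNonAD8. The unnamed transcript 4931428F04Rik was 0.440 to 1.96 CPM (median 0.737) in FeCon and 1.24 to 3.76 CPM (median 2.67) in FeNonAD, with a log2 fold change of 1.52 ± 0.24 (SE), edgeR adjusted p = 4.3e-05.

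In Vwce, Maff, Grap, Emd, Mt1, Zbtb8b and Wdr92, described below, FeCon2 had the lowest FeCon level. Scin, scinderin, which severs and caps actin filaments, had the lowest adjusted p of all falls. It was 2.31 to 15.6 CPM (median 10.4) in FeCon and 0.743 to 1.96 CPM (median 1.07) in FeNonAD without overlap, as was so in the falling direction for 0.374% of all tested genes, and had a log2 fold change of -3.05 ± 0.30 (SE), edgeR adjusted p = 5.7e-09. Vwce, a secreted protein with von Willebrand factor C and EGF domains, was 0.464 to 12.5 CPM (median 6.91) in FeCon and 0.183 to 0.918 CPM (median 0.446) in FeNonAD, with FeCon2 at the level of FeNonAD, and a log2 fold change of -3.81 ± 0.44 (SE), edgeR adjusted p = 1.2e-07. Maff, a small Maf transcription factor of the stress response, was 24.9 to 149 CPM (median 96.7) in FeCon and 18.0 to 45.4 CPM (median 27.4) in FeNonAD, with FeCon2 at 24.9 CPM, and a log2 fold change of -1.70 ± 0.19 (SE), edgeR adjusted p = 9.8e-08.

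Grap, an adaptor of receptor signalling related to GRB2, was 12.6 to 47.0 CPM (median 32.4) in FeCon and 7.49 to 16.0 CPM (median 9.86) in FeNonAD, with a log2 fold change of -1.60 ± 0.18 (SE), edgeR adjusted p = 9.8e-08. Emd, emerin, a protein of the inner nuclear membrane, was 61.4 to 153 CPM (median 114) in FeCon and 49.7 to 68.1 CPM (median 56.1) in FeNonAD, with a log2 fold change of -1.08 ± 0.13 (SE), edgeR adjusted p = 2.5e-07. Slc24a4, an exchanger of sodium, calcium and potassium, was 3.18 to 21.9 CPM (median 14.2) in FeCon and 1.10 to 3.84 CPM (median 2.76) in FeNonAD, with a log2 fold change of -2.33 ± 0.38 (SE), edgeR adjusted p = 5.6e-05. Cpm, carboxypeptidase M, an enzyme of the cell surface that trims peptides, was 1.66 to 14.3 CPM (median 7.57) in FeCon and 0.991 to 1.80 CPM (median 1.44) in FeNonAD, with a log2 fold change of -2.47 ± 0.33 (SE), edgeR adjusted p = 2.3e-06. Zbtb8b, a zinc finger gene, was 26.4 to 414 CPM (median 212) in FeCon and 30.0 to 67.1 CPM (median 41.2) in FeNonAD, with FeCon2 at 26.4 CPM and a log2 fold change of -2.33 ± 0.38 (SE), edgeR adjusted p = 5.4e-05. Wdr92, a cofactor in the assembly of dyneins, was 19.9 to 305 CPM (median 196) in FeCon and 19.7 to 59.7 CPM (median 28.5) in FeNonAD, with a log2 fold change of -2.58 ± 0.37 (SE), edgeR adjusted p = 8.2e-06. Most values of Wdr92 and all of Emd were fractional expected counts, so reads were shared with other genes and their levels are uncertain. The same holds in part for Gpr135, Ccnb1 and Myh7, with fractional values in 60.4%, 41.7% and 37.5% of libraries.

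G6pc, the catalytic subunit of glucose-6-phosphatase, had the largest fall, from 0.0633 to 6.30 CPM in FeCon (median 0.915) to 0 to 0.262 CPM in FeNonAD (median 0.0952), so the groups overlapped and the level was low. Its change was a log2 fold change of -3.95 ± 0.68 (SE), edgeR adjusted p = 1.2e-04. Lmod2, a leiomodin of heart muscle thin filaments, was 10.8 CPM in FeCon10 and 0.340 in the FeCon median, and its log2 fold change of -3.22 became -1.63 (adjusted p = 0.18) without FeCon10.

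**Figure D4:**
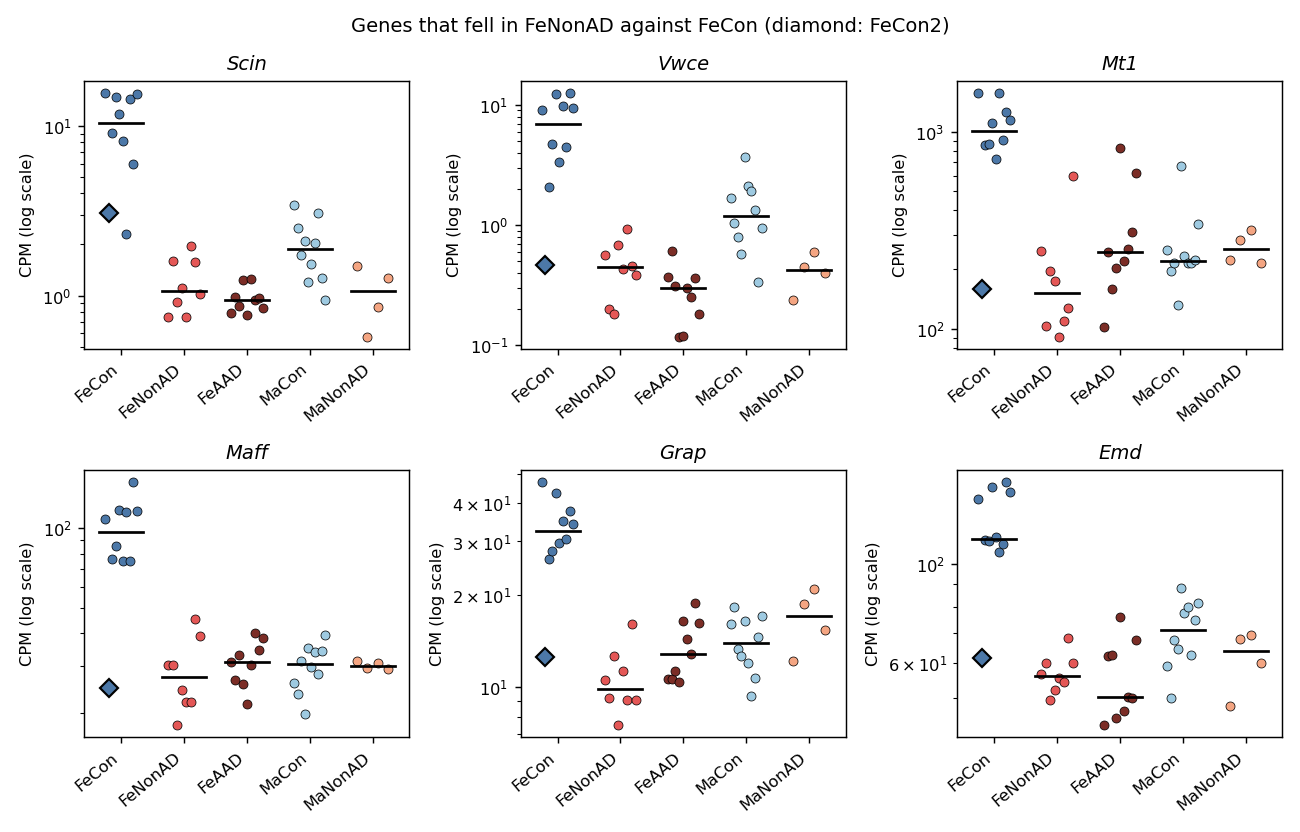
CPM on a log scale of 6 genes that fell in FeNonAD, in FeCon, FeNonAD, FeAAD, MaCon and MaNonAD, with 1 point per library, the group's median as a bar and FeCon2 as a diamond. FeCon2 lies among the FeNonAD points for Vwce, Mt1, Maff, Grap and Emd, and the MaCon points of Maff, Grap and Mt1 lie below the other FeCon points.

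Metallothioneins, small cysteine-rich proteins that bind zinc and copper and are induced by metals and glucocorticoids, fell, while the list of metal binding and transport that holds them had a median of 0.01. Mt1 was 159 to 1572 CPM (median 1007) in FeCon and 91.0 to 595 CPM (median 151) in FeNonAD, with FeCon2 at 159 CPM, and had a log2 fold change of -2.31 ± 0.41 (SE), edgeR adjusted p = 1.8e-04. Mt2 was 56.1 to 874 CPM (median 597) in FeCon and 23.8 to 476 CPM (median 38.7) in FeNonAD, with FeCon2 at 56.1 and FeNonAD8 at 476 CPM, and had a log2 fold change of -2.54 ± 0.56 (SE), edgeR adjusted p = 0.0019, and -3.73 (adjusted p = 9.4e-06) without FeNonAD8. Their promoters hold metal response elements (MRE), bound by MTF1. The promoters are shown because both genes fell together. They are the 250 bases before the start in RefSeq GRCm38.p6, at chr8:94172368-94172617 (plus strand) and chr8:94178839-94179088 (plus strand), with MRE cores (TGCACNC or TGCGCNC, either strand) and, in Mt1, the palindromic glucocorticoid response element in capitals.
Mt2: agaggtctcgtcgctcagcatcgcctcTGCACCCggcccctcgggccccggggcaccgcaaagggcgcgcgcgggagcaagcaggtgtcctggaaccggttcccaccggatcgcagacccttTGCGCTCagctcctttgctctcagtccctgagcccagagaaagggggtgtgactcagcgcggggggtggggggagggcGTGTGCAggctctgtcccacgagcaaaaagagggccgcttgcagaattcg
Mt1: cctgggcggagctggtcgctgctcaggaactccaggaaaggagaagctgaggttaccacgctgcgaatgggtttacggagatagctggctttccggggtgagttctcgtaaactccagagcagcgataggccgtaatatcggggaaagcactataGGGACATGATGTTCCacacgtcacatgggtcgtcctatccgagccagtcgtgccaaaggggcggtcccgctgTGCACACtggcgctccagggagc
Mt2 holds 3 MRE cores and Mt1 holds 1 and 1 glucocorticoid element. An MRE core is present in 21.4% of all promoters and the glucocorticoid element in 0.0365%. Of 18 genes of metal binding and transport, 3 fell (16.7%, against 7.66% of all genes) and 2 rose (11.1%, against 6.87%). Beside Mt1 and Mt2 the zinc importer Slc39a8 fell (log2 fold change -1.10, edgeR adjusted p = 0.0038), while the metal reductase Steap4 (1.05) and the transferrin receptor Tfrc (0.79) rose, the latter with 0.66 (adjusted p = 0.077) without FeNonAD5 and 0.78 (adjusted p = 0.053) with the replicate block.

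The contractile genes of smooth muscle fell in part. Of 34 tested 5 fell (14.7%, against 7.66% of all genes) and 0 rose (0 at an unadjusted p under 0.05, 0 by DESeq2), 31 of them had a log2 fold change below 0, and the median was -0.28. Lmod1, the smooth muscle leiomodin that nucleates actin filaments, was 900.2 to 1629.5 CPM (median 1215) in FeCon and 606 to 934 CPM (median 750.0) in FeNonAD, with a log2 fold change of -0.69 ± 0.18 (SE), edgeR adjusted p = 0.0081. Des, desmin, was 112 to 279.9 CPM (median 166) in FeCon and 61.6 to 172 CPM (median 82.6) in FeNonAD, with a log2 fold change of -0.82 ± 0.22 (SE), edgeR adjusted p = 0.0091. Csrp1 had -0.59, and -0.50 (adjusted p = 0.057) with the heart muscle level in the fit, and Actg2 -0.57, lost in 11 of 29 alternatives. The number of contractile genes that fell was 3 to 12 over the alternatives. Of the 15 heart muscle genes, given below, 14 were also below 0, with a median of -0.76. The main contractile proteins Acta2 and Myh11 had log2 fold changes of -0.31 (adjusted p = 0.25) and -0.31 (adjusted p = 0.3), with Acta2 at 15648 to 29533 CPM (median 21829) in FeCon and 13851 to 25408 CPM (median 16439.6) in FeNonAD.

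Hspb1, Hspb8 and Bag3 of the chaperone list and 4 immediate early genes fell. Hspb1, a small heat shock protein that binds actin, was 514 to 2655 CPM (median 1399) in FeCon and 275 to 759.8 CPM (median 331) in FeNonAD, with a log2 fold change of -1.92 ± 0.26 (SE), edgeR adjusted p = 3.6e-06. Hspb8 was 172 to 381 CPM (median 209) in FeCon and 127 to 167 CPM (median 150.4) in FeNonAD without overlap, with a log2 fold change of -0.68 ± 0.13 (SE), edgeR adjusted p = 2.6e-04, and its partner Bag3 had -0.58 (edgeR adjusted p = 0.013). Nr4a2, an orphan nuclear receptor induced early in many responses, was 9.56 to 127 CPM (median 13.1) in FeCon and 8.71 to 14.6 CPM (median 10.3) in FeNonAD, with a log2 fold change of -1.55 ± 0.33 (SE), edgeR adjusted p = 0.0014. FeCon9 (127 CPM), FeCon5 (57.9 CPM) and FeCon7 (43.5 CPM) were high and the other FeCon libraries lay near FeNonAD, and without FeCon9 it was -0.95 (adjusted p = 0.0088). Of 24 immediate early genes 4 fell (Maff, Nr4a2, Nr4a3 and Jund) and 2 rose (Egr2 and Egr3), that is 16.7% and 8.33% against 7.66% and 6.87% of all genes, and 3 to 6 fell and 0 to 2 rose over the alternatives. Of 22 chaperone genes 3 fell (13.6%) and 1 rose, Dnajb4 (0.68), a call lost in 6 of 29 alternatives, among them without FeNonAD5, FeNonAD6, FeCon4 or FeCon6.

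Some RNA-processing and chromatin genes fell by small amounts. Of 47 splicing factors 12 fell (25.5%, against 7.66% of all genes) and 0 rose (1 at an unadjusted p under 0.05, 1 by DESeq2), with a median of -0.14. With library totals in place of TMM scaling 4 of them fell. Sf3b1, a core protein of the U2 particle, was 279 to 436 CPM (median 402) in FeCon and 255 to 349 CPM (median 278) in FeNonAD, with a log2 fold change of -0.41 ± 0.09 (SE), edgeR adjusted p = 0.003. Srsf4 had -0.47 (adjusted p = 0.0054). Of 47 histone modifiers 8 fell and 1 rose, and 1 fell with library totals and 1 to 13 over all alternatives. Kdm3a, a histone demethylase, was 30.8 to 62.6 CPM (median 46.2) in FeCon and 27.8 to 35.5 CPM (median 32.0) in FeNonAD, with a log2 fold change of -0.52 ± 0.11 (SE), edgeR adjusted p = 9.1e-04. All 51 ribosomal protein genes tested had a log2 fold change below 0 under each of 3 scalings, with a median of -0.32, and 1 passed the test. In a fit of FeCon and FeNonAD alone 13 passed.

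In developmental signalling, Nog, noggin, which sequesters bone morphogenetic proteins, was 0.361 to 1.51 CPM (median 1.14) in FeCon and 0.124 to 0.551 CPM (median 0.283) in FeNonAD, with a log2 fold change of -1.74 ± 0.33 (SE), edgeR adjusted p = 3.6e-04. Of 29 Wnt genes 5 fell (17.2%, against 7.66% of all genes) and 3 rose (10.3%, against 6.87%), and the number that rose was 1 without FeNonAD8, 1 without FeCon10 and 0 to 5 over all alternatives. Wnt4, a secreted Wnt ligand, fell by 1.47 on the log2 scale (edgeR adjusted p = 0.011), and Wnt5a, a ligand of the non-canonical branch, rose by 0.58, a call lost in 13 of 29 alternatives. Of 42 genes of TGF-β and BMP signalling 2 rose and 4 fell, with 0 to 2 and 4 to 8 over the alternatives. These are 4.76% and 9.52%, near the 6.87% and 7.66% of all genes. The number that fell was 7 without FeCon2, 8 without FeCon3 and 7 without FeCon7. Esr1, the estrogen receptor α, was 5.76 to 17.1 CPM (median 11.0) in FeCon and 11.1 to 23.0 CPM (median 17.3) in FeNonAD, with a log2 fold change of 0.70 ± 0.23 (SE), edgeR adjusted p = 0.03, a call lost in 9 of 29 alternatives. Kmo, an enzyme of tryptophan breakdown, had a log2 fold change of 1.18 (edgeR adjusted p = 0.026), and 0.89 (adjusted p = 0.11) without FeNonAD8. The targets of the aryl hydrocarbon receptor Cyp1a1 and Cyp1b1 had -0.10 (adjusted p = 0.93) and -0.36 (adjusted p = 0.32). Without FeNonAD8 they had 0.09 (adjusted p = 0.94) and -0.62 (adjusted p = 0.065).

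RNA of neighbouring tissues was present in all libraries and differed in level. Of 11 mesothelial genes 5 fell (45.5%, against 7.66% of all genes), with a median of -0.85, but 1 fell without FeNonAD8 and 2 with library totals, and the number was 1 to 6 over all alternatives. Krt8 (-1.31) lost its call in 14 of 29 alternatives and Msln (-0.93) in 10 of 29. The summed level of the list was 82.8 to 400.0 CPM in FeCon and 79.0 to 211 CPM in FeNonAD. Of 15 heart muscle genes 1 fell (6.67%), Myh7, whose log2 fold change of -1.80 became -0.44 (adjusted p = 0.53) without FeCon10 and -1.70 (adjusted p = 0.052) without FeNonAD8. The list had a median of -0.76 and sums of 712 to 1968 CPM in FeCon and 528 to 1257 CPM in FeNonAD. With the heart muscle level as a term in the fit, 305 genes were DEGs, of which 287 were among the 397. Of skeletal muscle genes 2 of 9 fell, with Tnnt3, fast troponin T, at -1.27. None of 16 brown fat genes passed in edgeR (1 at an unadjusted p under 0.05, 0 by DESeq2), with sums of 835 to 2898 CPM in FeCon and 570.3 to 2686 CPM in FeNonAD. No gene of the mesothelium, heart muscle, skeletal muscle and brown fat lists was at 0 in all FeCon or all FeNonAD libraries except 1 skeletal muscle gene. With the brown fat level as a term there were 474 DEGs, 166 of them lower, of which 148 were among the 156. The part of mesothelium and skeletal muscle in the falls was not tested.

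The libraries also differed in the phase of the circadian clock. Dbp, a clock output gene, was 33.0 to 545 CPM (median 299) in FeCon and 3.53 to 381 CPM (median 289) in FeNonAD, and Arntl, which peaks in the opposite phase, was 2.03 to 41.9 CPM (median 25.1) in FeCon and 1.18 to 63.8 CPM (median 4.97) in FeNonAD, and Dbp was lowest in FeCon2 (33.0 CPM), FeCon7 (58.3) and FeCon9 (72.1) and in FeNonAD5 (3.53), FeNonAD6 (6.80) and FeNonAD8 (24.8). A score of clock phase ranged over -1.42 to 1.58 in FeCon and -3.34 to 1.91 in FeNonAD. With the score in the fit there were 372 DEGs (207 higher and 165 lower), of which 355 were shared. Of core clock genes 3 of 22 fell (13.6%, against 7.66% of all genes), Cry2 (-0.83), Csnk1e and Csnk1d. With the score in the fit 10 fell, and Dbp had -1.07 (adjusted p = 0.0015) and Arntl -1.42 (adjusted p = 0.0012), but the score is made of clock genes, with Dbp and Arntl among them.

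The remaining lists are read against 6.87% of all genes that rose and 7.66% that fell. The numbers that rose and fell, of those tested, were 2 and 2 of 25 for proteoglycans, 3 and 1 of 26 for adventitial fibroblast genes, 1 and 1 of 34 for channels and vasoactive receptors of smooth muscle, 2 and 2 of 17 for the IGF system, 1 and 0 of 29 for lysosomal genes, 0 and 1 of 24 for complement, 1 and 0 of 30 for interferon-stimulated genes, 1 and 0 of 25 for the unfolded protein response, 0 and 4 of 25 for glycolysis and hypoxia, 1 and 1 of 27 for cholesterol genes, 1 and 0 of 18 for aryl hydrocarbon receptor and tryptophan genes, 3 and 1 of 11 for sex steroid genes, 0 and 1 of 19 for white fat, 0 and 1 of 6 for epithelium and thyroid. Over all alternatives the falls of the glycolysis and hypoxia list were 2 to 5 and the rises of the sex steroid list 2 to 4. The sex steroid list held a share of rises of 27.3% (Esr1, Srd5a1 and Srd5a3) and the glycolysis and hypoxia list a share of falls of 16.0%. In the glycolysis and hypoxia list the falls were Adm, Higd1a, Ndrg1 and Pfkp, and in the IGF list Igf1r, the receptor, and Igfbp6 fell while Igf2r and Igfbp2 rose. No gene passed in edgeR in the oxidative phosphorylation list (29 tested, 0 at an unadjusted p under 0.05, 0 by DESeq2), the thymocyte list (7 tested, 1 at an unadjusted p under 0.05, 0 by DESeq2), the red cell list (7 tested, 0 at an unadjusted p under 0.05, 0 by DESeq2), the nerve and Schwann cell list (11 tested, 2 at an unadjusted p under 0.05, 1 by DESeq2).

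The males without a lesion (MaNonAD, 4 libraries, against MaCon, 10) share no library with the female comparison, so the female genes can be followed there. Rises were alike in direction: of the 241 genes higher in FeNonAD, 218 (90.5%) had a male log2 fold change above 0, against 46.6% of all tested genes. Their male median was 1.02 and the female one 1.46, and 26 passed the test in males in the same direction (0.443% of all genes rose and 0.18% fell in males). Over all genes 69 (0.478%) were male DEGs, 55 (0.381%) higher and 14 (0.097%) lower in MaNonAD. Of the 156 genes lower in FeNonAD, 94 (60.3%) were below 0 in males, against 53.4% of all genes, with a male median of -0.13 against -1.37 in females. In males 0 of them passed the test. Lists that fell by smaller amounts differed: the contractile list had a male median of -0.40, with 1 of 34 genes above 0. In edgeR 0 of these fell in males (11 at an unadjusted p under 0.05, 1 by DESeq2). Splicing factors had -0.15 (4 of 47 above 0) and ribosomal proteins -0.17 (0 of 51). The immediate early list had 0.08 (14 of 24 above 0) and Wnt genes 0.07 (16 of 29).

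The mean levels of these genes, which were chosen by the female contrast, follow as a description. For the genes higher in FeNonAD the mean log2(CPM + 1) was 1.09 in FeCon, 1.84 in FeNonAD, 1.33 in MaCon and 1.87 in MaNonAD. For those lower in FeNonAD it was 3.36 in FeCon, 2.45 in FeNonAD, 2.71 in MaCon and 2.62 in MaNonAD. Maff, given above in females, was 19.8 to 39.3 CPM (median 30.7) in MaCon and 31.4, 29.5, 30.8, 29.3 CPM in the 4 MaNonAD libraries. Mt1 was 132 to 672 CPM (median 219.5) in MaCon and 222, 284, 317, 215 CPM in MaNonAD.

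**Figure D5:**
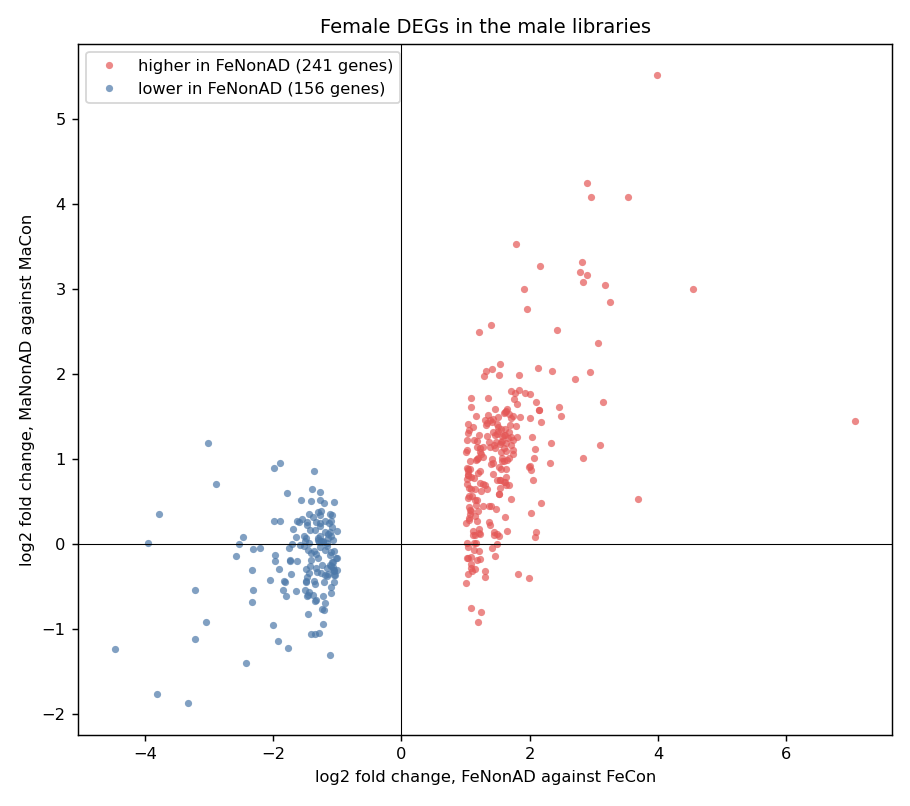
Log2 fold change of the female DEGs in females (x axis, FeNonAD against FeCon) and males (y axis, MaNonAD against MaCon); each point is 1 gene, red for the 241 higher and blue for the 156 lower in FeNonAD. The red points lie mostly above 0 in males and the blue points scatter about 0.

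Esm1 was 0.352 to 1.96 CPM (median 1.07) in MaCon and 52.6, 7.83, 8.02, 6.28 CPM in MaNonAD (log2 fold change 4.08, edgeR adjusted p = 1.1e-06). Fn1 had 1.07 (adjusted p = 0.0016), Acan 1.22 (adjusted p = 9.9e-04) and Spp1 5.51 (adjusted p = 2.2e-04) in males. For Eln it was 0.89 with an adjusted p of 0.14, and 0.89 in females, and the difference between the sexes was 0.01 ± 0.37 (SE). The cell cycle list had a male median of 1.01 with 34 of 36 genes above 0. In edgeR 0 of them passed in males (22 at an unadjusted p under 0.05, 2 by DESeq2). Of B cell genes 7 of 13 rose in males, against 0.443% of all genes. Of red cell genes, all 7 tested were above 0 in males with a median of 2.14, and 0 passed in edgeR (7 at an unadjusted p under 0.05, 0 by DESeq2). The summed level of all 10 listed was 208 to 1400.0 CPM in MaCon and 688 to 5190.0 CPM in MaNonAD, and the part of blood in the male B cell rise was not tested.

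The difference between the sexes was tested directly. 43 genes (0.298% of those tested) had a change under BAPN that differed by at least 1 on the log2 scale between females and males, 12 (0.0832%) higher and 31 (0.215%) lower in females. The treated mice of both sexes are those that survived without a lesion, and the paper reports lesions in a larger share of treated males. A differing response to BAPN and a differing selection of mice cannot be told apart. The count depended on single libraries, at 117 without FeCon2 and 12 without MaNonAD1, and was 9 with the clock score in the fit, whose values were -3.06 to 1.65 in MaCon and 0.74 to 1.80 in MaNonAD. Among the female DEGs that passed this test, the genes with the most negative differences were Oprl1, the nociceptin receptor, Pabpc1l, a poly(A)-binding protein of germ cells, and the olfactory receptor Olfr920. Olfr920 was 0.530 to 2.42 CPM (median 1.14) in FeCon and 0.124 to 0.510 CPM (median 0.319) in FeNonAD, and 0.0668 to 0.658 CPM (mean 0.417) in MaCon and 0.838, 0.509, 0.854, 1.07 CPM in MaNonAD, with a difference of -2.84 ± 0.50 (SE, edgeR adjusted p = 0.0023). Oprl1 had -4.20 and Pabpc1l -2.89, both at low levels. The mean of Oprl1 was 1.08 CPM in FeCon, 0.126 in FeNonAD, 0.0726 in MaCon and 0.177 in MaNonAD. Its highest count was 33 in FeCon and 4 in FeNonAD. For Pabpc1l the means in the same order were 1.21, 0.296, 0.286 and 0.536 CPM. Cdk6, a kinase of the G1 phase, was the only one of these with a response at least 1 higher in females, at 9.82 to 46.3 CPM (median 17.9) in FeCon and 27.1 to 52.5 CPM (median 42.3) in FeNonAD, and 25.5 to 48.9 CPM (median 39.4) in MaCon and 31.1, 30.0, 26.1, 36.7 CPM in MaNonAD (difference 1.36, edgeR adjusted p = 0.02).

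The females with a lesion (FeAAD) share the FeNonAD libraries with this comparison, so their values are given side by side. Of the tested genes 1016 (7.04%) were DEGs between FeAAD and FeNonAD, 980 (6.79%) higher and 36 (0.249%) lower in FeAAD. Spp1 was 68.1 to 4119.6 CPM (median 253) in FeAAD, 4.28 on the log2 scale above FeNonAD. Mki67 was 12.8 to 99.4 CPM (median 43.2) in FeAAD (2.35), Thbs1 328 to 2879 CPM (median 869) (2.47) and Timp1 56.6 to 2045 CPM (median 226) (2.73). Other genes that rose in FeNonAD did not pass between FeNonAD and FeAAD: Col6a3 was 525 to 1209 CPM (median 785) in FeAAD (0.05, adjusted p = 0.85), Col27a1 34.9 to 79.4 CPM (median 63.8) (-0.01) and Fn1 3278 to 7524 CPM (median 4556) (0.44, adjusted p = 0.058). Scin, Maff and Mt1 did not pass either: Scin was 0.769 to 1.26 CPM (median 0.936) in FeAAD, Maff 21.6 to 40.0 CPM (median 31.3) and Mt1 102 to 825 CPM (median 246), with adjusted p values against FeNonAD of 0.49, 0.72 and 0.24. Pla2g2d, a secreted phospholipase, was 0.415 to 2.08 CPM (median 1.21) in FeCon and 0.828 to 9.12 CPM (median 2.06) in FeNonAD and 0 to 1.22 CPM (median 0.562) in FeAAD (-2.28), and its rise in FeNonAD was lost in 8 of 29 alternatives. Lmod1 and Csrp1 of the contractile list fell further, by 0.57 and 0.62 on the log2 scale from FeNonAD to FeAAD (edgeR adjusted p = 0.023 and 0.0095). Klk11, a kallikrein-related protease, fell in both, with -1.20, a call lost with the replicate block and with the heart muscle level in the fit, and then -1.27. Gpr135 was 0 to 1.71 CPM (median 0.672) in FeCon and 0 to 0.262 CPM (median 0) in FeNonAD, and 0 to 2.14 CPM (median 1.06) in FeAAD, with log2 fold changes of -3.79 and then 3.95 (edgeR adjusted p = 0.03 and 0.02), and the first call was lost in 6 of 28 alternatives, among them without FeNonAD3, FeNonAD4, FeNonAD5, FeNonAD6 or FeCon5. A p that misses the threshold does not show that the levels are equal.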

How the data were processed

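Bulk mRNA sequencing (strand-specific libraries) of mouse thoracic aorta gave 48 libraries. The deposited values are expected counts per gene, made by the authors with Bowtie2 and RSEM 1.3.1 on GRCm39 according to the submitters' processing notes; 4.99% of values were fractional, where RSEM splits reads between genes. The design assumed whole counts, so the values were rounded. Library totals of all 48 were 13548000.0 to 17281273. Groups came from the sample labels. Genes passing filterByExpr were scaled with TMM and fitted over all 6 groups in edgeR 4.0.16 (R 4.3.3) with robust quasi-likelihood dispersions, and p values were adjusted by Benjamini-Hochberg over all 14431 genes. The SE is the absolute log2 fold change divided by the root of F. Replicates are separate mice. DESeq2 1.42.0 and other scalings, filters, covariates and left-out libraries were alternatives. No 2 libraries held identical values. The fit was also run on simulated independent counts with known changes. These held no extreme libraries and no shared differences of tissue or clock, so the run does not show how such features move the calls.

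Named genes are, among DEGs with at least 10 counts on average in the 18 libraries, the 10 largest rises and falls and the 5 lowest adjusted p values each way, then members of 46 gene lists, and for the sex and lesion comparisons up to 3 of the largest each way among genes that were also DEGs of FeNonAD against FeCon; others are said to be chosen after their values were seen. Some named genes are not reported here. The members and lists were chosen with earlier results of these data known. FeCon and FeNonAD share replicate numbers, but same-numbered libraries did not deviate together (correlations -0.33 to 0.43, above 0.1 in 3 of 8), so they were not paired. Promoters come from RefSeq GRCm38.p6, and no other coordinates are given. The study itself used DESeq2.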

Additional observations from a re-analysis of the deposited data

Results flagged for a closer look

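In 33 of 250 gene and group combinations the highest or lowest library lay far from the others of its group by Dixon's test on log2(CPM + 1), where chance gives about 1 in 20 in groups not chosen for their values. The genes were chosen here for the size of their change or their p, which favours a single extreme library, so the number is a description and is not read against that rate. FeNonAD8 was the distant library for (in CPM) Il6 (8.66), Olr1 (12.1), Col11a1 (26.9), Cthrc1 (49.9), Mt2 (476), P4ha3 (16.8), Chad (9.17), Timp1 (336), Cd68 (35.4), Il33 (140.1), Il11 (7.07), Cyp1b1 (163), Fbn2 (6.94). FeCon2 was the distant library for Wdr92 (19.9), Mt2 (56.1), Zbtb8b (26.4), Mt1 (159), Grap (12.6), Maff (24.9), Emd (61.4), Pecam1 (262), Fam32a (92.9), in each case on the low side of FeCon. FeCon10 was the high library for Lmod2 (10.8), Myh7 (9.90). The remaining distant libraries were Cxcl13 in FeNonAD6 (13.8), Olr1 in FeCon3 (0.760), Cdk6 in FeNonAD3 (27.1), Gpr135 in FeNonAD7 (0.262), Klk11 in FeNonAD1 (1.18), Col5a2 in FeCon4 (823), Lox in FeCon3 (217), Krt8 in FeNonAD7 (7.01), Fbn1 in FeCon3 (454).

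The change from water to BAPN without a lesion differed between females and males in the test of the interaction for several genes in the text. The female minus male log2 fold change was -4.20 for Oprl1, -2.89 for Pabpc1l, -2.84 for Olfr920, -2.56 for Cpm, -2.44 for Wdr92, -2.14 for Scin, -1.86 for Grap and -1.70 for Maff, and 1.36 for Cdk6. In some of these MaCon lay nearer to FeNonAD than to FeCon. Means in FeCon, FeNonAD, MaCon and MaNonAD were 7.82, 1.40, 1.60 and 1.69 CPM for Cpm. They were 192, 32.3, 49.0 and 44.7 CPM for Wdr92 and 10.0, 1.21, 1.98 and 1.05 CPM for Scin. For Grap they were 32.4, 10.7, 14.1 and 16.8 CPM, and for Maff 94.2, 29.0, 30.2 and 30.2 CPM. The part of the difference between the water groups was not tested. The following were chosen after their values were seen: Hspa1a (3.09), Hspa1b (3.64), Dnajb4 (1.76), Crispld2 (-1.26), Fam32a (-1.77). Hspa1a and Hspa1b share reads, and Hspa1b was 68.3 to 1548 CPM (median 341) in MaCon and 59.0, 64.5, 62.0, 98.3 CPM in MaNonAD (edgeR adjusted p = 0.032), while the female change was 0.70 (adjusted p = 0.34). With the clock score in the fit 9 genes had a difference of at least 1.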

How the results depend on the processing

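The 397 DEGs (241 higher, 156 lower) ranged over 304 to 474 with other tools, scalings, filters or covariates, within 1.5 times of the main count. Without the limit on fold change they were 2096 (991 and 1105). Leaving out 1 library gave 302 to 488 (159 to 286 higher, 133 to 202 lower), lowest without FeNonAD8. The genes that differed between the sexes (43, 12 higher and 31 lower) were the least stable, at 95 (DESeq2), 9 (clock score as covariate), 28 (heart muscle score as covariate), 74 (brown fat score as covariate), 94 (without FeNonAD8, FeCon2 and FeCon10) in all, 19 (adjusted p alone), 34 (DESeq2), 7 (no filter on low counts), 1 (clock score as covariate), 5 (heart muscle score as covariate), 20 (brown fat score as covariate), 34 (without FeNonAD8, FeCon2 and FeCon10) higher and 61 (DESeq2), 8 (clock score as covariate), 54 (brown fat score as covariate), 60 (without FeNonAD8, FeCon2 and FeCon10) lower. Leaving out 1 FeCon, FeNonAD or MaNonAD library gave 12 to 117 in all, 1 to 45 higher and 11 to 72 lower, the FeCon and FeNonAD libraries added after the data were seen, and no MaCon library was left out. For FeAAD against FeNonAD (1016, 980 higher, 36 lower) the counts were 2625 (adjusted p alone) in all, 1904 (adjusted p alone) higher and 721 (adjusted p alone), 16 (fit of the 2 compared groups only), 22 (brown fat score as covariate) lower, and leaving out 1 FeNonAD library gave 933 to 1182, 908 to 1135 and 23 to 47. Of 112 named genes past the threshold, 66 stayed past it in every alternative and none of those past it changed sign. Cyp1a1, which did not pass, went from -0.10 to 0.09 without FeNonAD8. With library totals in place of TMM, 68.9% of DEGs were higher against 60.7%. Causes were not tested.

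With the replicate number as a block, 320 genes were DEGs (197 higher and 123 lower), 300 of them shared with the fit without it, and the count was 49 for the sexes and 899 for FeAAD against FeNonAD. The labels tie the numbers to no litter or day, and 1 of 8 correlated best with its own number.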

Other observations

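Values of genes that are on no list above are given here, chosen after their values were seen. Cdkn1a, an inhibitor of cyclin-dependent kinases, was 65.8 to 578 CPM (median 164) in FeCon and 42.8 to 149 CPM (median 53.9) in FeNonAD (log2 fold change of -1.42 ± 0.36 (SE), edgeR adjusted p = 0.0067). Crispld2, a secreted glycoprotein, was 352 to 1271 CPM (median 895) in FeCon and 280.3 to 440.3 CPM (median 416) in FeNonAD, with 273 to 440.0 CPM (median 363) in MaCon (log2 fold change of -1.22 ± 0.19 (SE), edgeR adjusted p = 4.1e-05). Por, the electron donor of cytochrome P450 enzymes, was 145 to 790.3 CPM (median 378) in FeCon and 134 to 272 CPM (median 218) in FeNonAD (log2 fold change of -1.08 ± 0.25 (SE), edgeR adjusted p = 0.0028). Errfi1, a feedback inhibitor of the epidermal growth factor receptor, was 54.4 to 1941 CPM (median 94.4) in FeCon and 77.3 to 289 CPM (median 141) in FeNonAD, a log2 fold change of -1.45 that was lost in 15 of 29 alternatives. FeCon7 (1941 CPM) and FeCon9 (1526 CPM) set its direction, since the FeCon median was below that of FeNonAD, and it was -0.76 (adjusted p = 0.26) without FeCon7 and -0.98 (adjusted p = 0.18) without FeCon9. Fam32a was 92.9 to 632 CPM (median 381) in FeCon and 81.8 to 129.8 CPM (median 96.3) in FeNonAD, with FeCon2 at 92.9 CPM and 101 to 309.8 CPM (median 151) in MaCon (log2 fold change of -1.97 ± 0.27 (SE), edgeR adjusted p = 3.6e-06).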
